A study of Mus musculus with 12 samples.

Results

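The comparison described here is that of T58A with wild-type (WT) marrow B cells grown with IL7, across every gene measured. Its members were chosen by sample label alone and are 6 of the 12 libraries of the series, 3 WT and 3 T58A, numbered in the titles as pairs 1 to 3. T58A is a point mutation in MYC, and the control mice are WT littermates. Primary B cells came from bone marrow, were cultured with serum and IL7 and were harvested after 48 h. No promoter, Cre or clone is named for these groups, and the labels do not say which mouse gave which library, so p-values measure the spread between these samples, which may be technical in part. Libraries were made with a kit that does not mark strand, so a gene and a partner that overlaps it on the opposite strand cannot be told apart.

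MYC is a transcription factor that binds DNA with its partner MAX, most strongly at the E-box CACGTG, and promotes cell growth. The threonine replaced in T58A is normally phosphorylated, which lets a ubiquitin ligase mark MYC for destruction, so the mutant protein is known to be more stable. IL7 is the cytokine that supports growth of B cell precursors in marrow. As those cells leave the IL7-driven stage they rearrange their light chain genes and begin to express surface proteins of mature B cells, among them the class II antigen presentation genes.

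Between 8486753 and 10201113 reads per library fell on genes. Values are given as normalised reads, that is, reads divided by 1 size factor per library. Transcripts that define the B lineage were abundant in every library, with the B cell receptor chain gene Cd79b between 5296 and 14012 and the surrogate light chain gene Igll1 between 6551 and 8776. They were not even between genotypes: 5 of 8 genes of all B lineage stages were lower in T58A (62.5%, against 6.31% of all tested genes). These were Blnk, Cd79a, Cd79b, Ptprc and Cd22, and the median log2 change of the list was -0.41. That median was -0.49, -0.37 and -0.23 in pairs 1 to 3. In pair 3 the 5 genes changed by -0.14 (Cd22) to -0.32 (Blnk and Cd79b). Without pair 2, Ptprc and Cd22 lost their calls (limma adjusted p = 0.0551 and 0.151) and the other 3 kept theirs. Of 10 pre-B genes 3 were lower (30%), namely Rag1, Rag2 and Vpreb3. Libraries stood apart by sex. WT 1 and WT 2 expressed Xist, which is made from the inactive X of females, at 12436 and 23674, while WT 3 and all T58A libraries were at 26.9 or less and expressed Y-linked genes, so sex moved with genotype in pairs 1 and 2 and only pair 3 was sex-matched. WT 2 also held Y-linked reads, 168 summed over 4 genes against 1.9 in WT 1 and 2258 to 2566 in the male libraries. It had the highest level of the plasma cell gene Igj, 611 against at most 105 elsewhere, and of Prdm1 (102). Other plasma cell genes were not raised there: Xbp1, Irf4 and Mzb1 lay within the range of the other libraries, and Sdc1 was lowest in WT 2 (294). Results are therefore also given without pair 2 and, for the main counts, the lists and some genes, with sex as a further term. That fit has 1 residual degree of freedom and takes the genotype effect from pair 3 alone.

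Markers of other cells were uneven between libraries. The summed level of 13 neutrophil genes was 366 to 1626 in WT and 141 to 559 in T58A. That of 20 monocyte and macrophage genes was 1236 to 1976 in WT and 754 to 1059 in T58A. Within that second sum Cybb alone was at 1225, 706 and 423 in WT 1 to WT 3. In the T58A partners Cybb was at 500, 272 and 294, and no other gene of that list was called. The median log2 change of its 11 tested genes was -0.95 in pair 1, 0.13 in pair 2 and -1.34 in pair 3. The neutrophil genes S100a8 and S100a9 were present in every library, at 19.97 to 227 and at 27.6 to 500 normalised reads. The median log2 change of the 8 tested neutrophil genes was -0.89 in pair 1, 0.41 in pair 2 and -3.50 in pair 3. None of the 8 was called with all pairs. Without pair 2, S100a8, S100a9, Mpo, Ltf, Ngp and Lcn2 were called lower (limma adjusted p 0.0189 to 0.0430), and Camp and Mmp8 were not. With sex as a further term, S100a8, S100a9, Ltf, Ngp, Camp and Lcn2 were among the genes called lower, and Mpo and Mmp8 were not. Of the T and NK list, Cd3e reached 4.3 at most and Gzma was listed at 0, while Thy1 was at 386 to 1101 and higher in T58A (0.56), Lck was at 473 to 639 and Il2rb was lower in T58A (-1.28). Of the erythroid and megakaryocyte list, all 5 globin genes and Car1 were listed at 0, while Car2 was at 1315 to 2864 and higher in T58A (0.50) and Itga2b was lower (-1.05). Thy1 changed by 0.99, 0.62 and 0.07 in pairs 1 to 3, so the sex-matched pair was nearly flat. Without pair 2, Thy1, Il2rb and Itga2b lost their calls (limma adjusted p = 0.107, 0.109 and 0.105) and Car2 kept its call (0.0401). Batf3 of the dendritic list, Mcpt4 and Tpsb2 of the mast cell list and Pdgfra of the stromal list were listed at 0. Other members of these lists were present. In the dendritic list Bst2 was at 349 to 528, and Flt3 was at 106 in WT 2 and at most 19.5 elsewhere. The mast cell list summed to 20.4 to 91.4 in WT and to 5.71 to 16.5 in T58A. Pecam1 of the stromal list was at 504 to 1200 and lower in T58A (-0.52). The part of other cells in the results below was not tested. The 13 mature B cell markers summed to 41636, 21223 and 11352 in WT 1 to WT 3 and to 18566, 10189 and 5743 in the T58A partners, so these genes differed between pairs as well as between genotypes. Of these 13 genes 11 were called lower (84.6%, against 6.31% of all tested genes). These calls come from the same comparison as the B lineage genes above and the immune lists below. The part of the stage of the cells in those falls was not tested.

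Across all genes, normalised reads were higher in T58A cultures for 744 genes and lower for 732, in a fit that holds the pair as a block (limma, Benjamini-Hochberg adjusted p under 0.05). These genes are 6.41% and 6.31% of the 11604 tested, and together 12.7%. Normalised reads are relative to the other genes of a library and do not measure RNA per cell. When libraries were scaled to total counts instead, the split was 576 higher and 867 lower. Falls were larger than rises: 107 of the lower genes and 31 of the higher ones differed by more than 2-fold, and the median log2 change was -0.53 among the lower and 0.39 among the higher. Every one of these genes moved in the same direction in all 3 pairs, as did 51.9% of all tested genes. The 3 T58A libraries lay above all WT libraries for 606 of the higher genes, and below them for 404 of the lower ones, against 12.9% and 10.8% of all tested genes. Without the pair as a block limma called 0 genes, although 1960 had an unadjusted p under 0.05. Without pair 2, limma called 345 higher and 429 lower genes, of which 311 and 374 were among those called with all pairs. Without pair 3 it called 390 and 525, and with sex as a further term 13 and 29. Of the 36 genes chosen by rule, 6 kept their call with sex as a further term, namely Cd74, H2-Aa, H2-Eb1, Fasn, Ldha and Steap4.

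**Figure D1:**
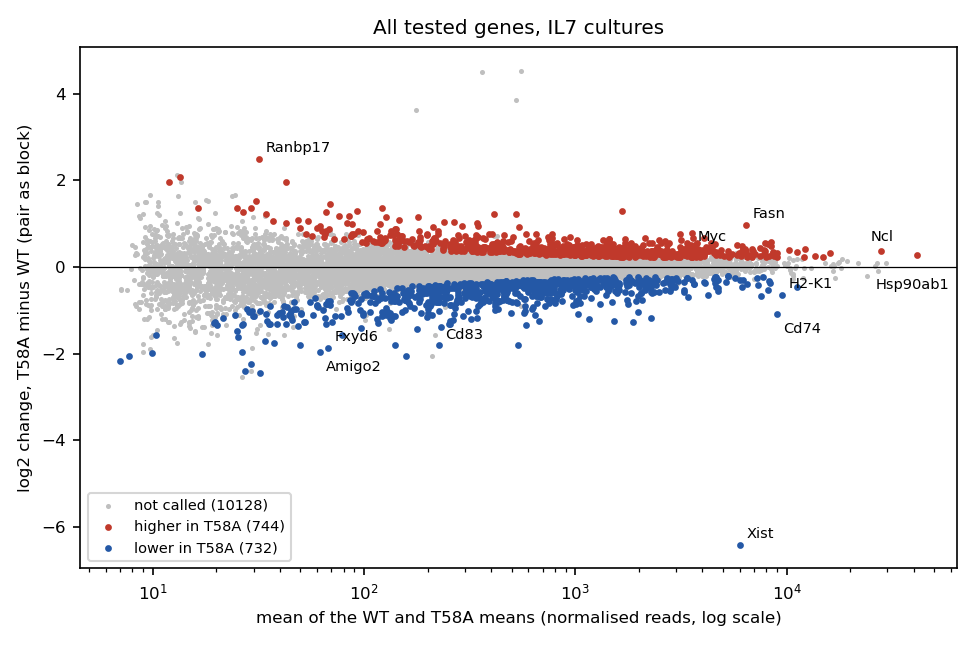
Each point is 1 of 11604 tested genes, placed by the mean of its WT and T58A levels (normalised reads, log scale) and by its log2 change in T58A with the pair as a block. Red points are the 744 genes called higher and blue points the 732 called lower. Of the higher genes, 358 lie in the top bin of level, the gene at -6.41 is Xist, and the 4 grey points above 3 are Y-linked genes, which differ with sex.

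The share of genes that rose was highest among abundant genes. When the tested genes were put into 5 equal bins by mean level, 358 of the 2321 genes in the top bin were higher (15.4%) and 172 were lower (7.41%). In the bottom bin 28 were higher (1.21%) and 71 lower (3.06%). Counting error is larger at low levels, and its part in this difference was not tested. In reads, the 744 higher genes took 11.2%, 13.1% and 13.6% of all normalised reads in WT 1 to WT 3 and 15.1%, 16.2% and 16.5% in their T58A partners. The 732 lower genes took 10.5%, 8.26% and 7.43% in WT and 6.81%, 5.81% and 5.56% in T58A. Those genes were chosen for these differences, so the shares describe their size and are no further test. Of 393 tested long noncoding RNA genes, 14 were higher (3.56%) and 12 lower (3.05%), smaller shares than the 6.41% and 6.31% of all genes.

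**Figure D2:**
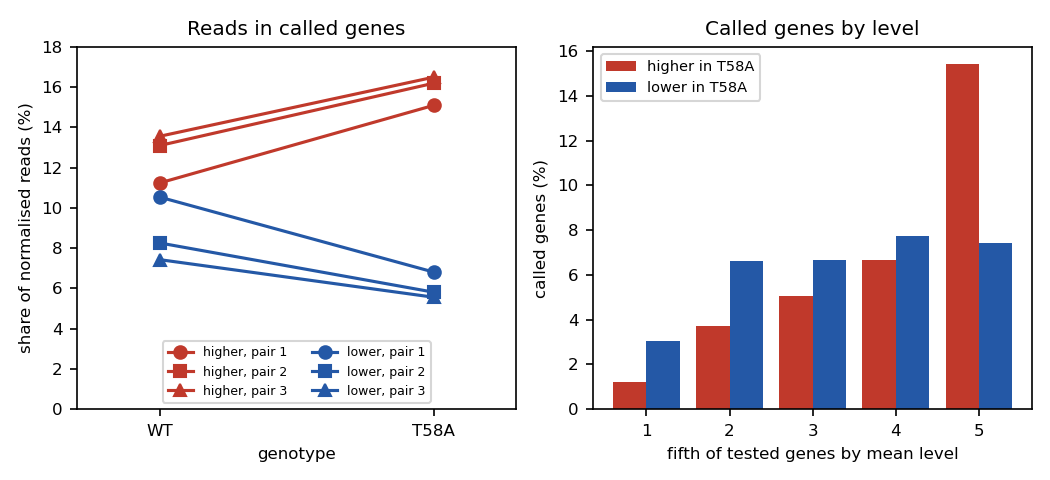
Left, share of normalised reads (%) held by the genes called higher (red) and lower (blue) in each WT library and its T58A partner, joined by pair. Right, percentage of genes called higher or lower in 5 equal bins of tested genes by mean level, from the lowest (1) to the highest (5). The share of higher genes goes from 1.21% in bin 1 to 15.4% in bin 5.

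The pairs shared the pattern. Genes were picked from 2 pairs, by a change of at least 1.5-fold the same way in both, and read in the pair left aside. With the sex-matched pair 3 left aside, 141 of 175 genes picked as higher were higher there (80.6%, against 49.2% of all tested genes), with a median log2 change of 0.40. Of 386 picked as lower, 341 were lower there (88.3%, against 50.8%), with a median of -0.61. Autosomal genes alone gave 80.5% and 88.0%. With pair 2 left aside the shares were 84.1% and 81.7%, and with pair 1 left aside 87.0% and 86.1%. Across the 11604 genes the within-pair log2 changes correlated by Pearson's r of 0.44 between pairs 1 and 2, 0.38 between pairs 1 and 3 and 0.31 between pairs 2 and 3. Genes are not independent replicates, so these values are a description.

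The X chromosome held a smaller share of called genes than the autosomes. Of 375 tested X-linked genes, 14 were higher (3.73%) and 22 lower (5.87%), against 6.52% and 6.35% of 11177 autosomal genes. Among the autosomes, the share of higher genes ran from 3.50% on chromosome 7 to 9.64% on chromosome 18, and that of lower genes from 3.95% on chromosome 8 to 10.1% on chromosome 19. The 4 tested Y-linked genes were higher in T58A in pairs 1 and 2 and were not called.

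Myc, on chromosome 15 from 61985391 to 61990374 (GRCm38, GENCODE M21, as for all gene positions below), was at 2010, 3204 and 3858 in WT 1 to WT 3 and at 3038, 4397 and 4827 in the T58A partners. It was higher in T58A within every pair, although the groups overlapped. Its log2 change was 0.46 ± 0.07 (SE), with a limma adjusted p of 0.00791, of 0.0275 without pair 2 and of 0.414 with sex as a further term. Reads of the mutant and the normal allele are counted together, so these values do not check the genotype.

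Promoters of the genes that moved together were compared for the E-box, since the mutated protein is known to bind it. Windows reach from 250 bases before to 50 after the start of a RefSeq transcript (GRCm38.p6). CACGTG, which is its own reverse complement, was in 107 of 681 windows of higher genes (15.7%), in 58 of 806 windows of lower genes (7.20%) and in 1209 of 11726 windows of all tested genes (10.3%). The share was 7.15% of all 32851 RefSeq windows. In each of the 5 bins of mean level the share was larger among higher genes (14.5% to 18.7%) than among genes that were not called (8.5% to 11.7%). The variant CACATG, read on both strands, was in 8.96% of windows of higher genes, 11.4% of lower and 8.37% of all tested. The sequence GGGCGG, also read on both strands, was in 69.0% of windows of higher genes, 53.6% of lower and 62.5% of all tested. That is the same order as for CACGTG. Windows of higher genes were 61.8% G or C, those of lower genes 58.1% and those of all tested genes 60.6%. A match is a description of sequence, not a site of binding.

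The windows of 4 genes show both cases. Ldha and Mgll are the named genes that hold CACGTG in a window and were chosen for that. Each has 2 windows, of which 1 holds it. Several named genes, among them Myc, Hsp90ab1 and Cd74, have no window here and could not be read. Ranbp17, with the largest rise, and Fxyd6, with the largest fall by the rule below, were taken by that rule, and their windows hold none. Sequences run 5′ to 3′ on the gene's strand, with CACGTG in capitals. Ldha lies at chr7:46845554-46845853 (plus strand), with the first of its 2 matches 145 bases before the start. Mgll lies at chr6:88724162-88724461 (plus strand), with its match 44 bases before the start. Ranbp17 lies at chr11:33513704-33514003 (minus strand) and Fxyd6 at chr9:45369935-45370234 (plus strand).
Ldha: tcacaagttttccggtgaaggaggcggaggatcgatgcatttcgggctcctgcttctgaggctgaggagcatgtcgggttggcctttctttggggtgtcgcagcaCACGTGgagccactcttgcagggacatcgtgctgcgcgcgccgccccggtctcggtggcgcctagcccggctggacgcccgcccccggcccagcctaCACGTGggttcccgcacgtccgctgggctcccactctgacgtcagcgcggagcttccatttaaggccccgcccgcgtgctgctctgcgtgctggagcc
Mgll: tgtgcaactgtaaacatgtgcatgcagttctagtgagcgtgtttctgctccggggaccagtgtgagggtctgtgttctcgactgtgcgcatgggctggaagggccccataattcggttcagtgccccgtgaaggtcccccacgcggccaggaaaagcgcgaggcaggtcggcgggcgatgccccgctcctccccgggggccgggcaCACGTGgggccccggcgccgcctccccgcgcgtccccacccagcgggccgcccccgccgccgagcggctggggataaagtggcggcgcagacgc
Ranbp17: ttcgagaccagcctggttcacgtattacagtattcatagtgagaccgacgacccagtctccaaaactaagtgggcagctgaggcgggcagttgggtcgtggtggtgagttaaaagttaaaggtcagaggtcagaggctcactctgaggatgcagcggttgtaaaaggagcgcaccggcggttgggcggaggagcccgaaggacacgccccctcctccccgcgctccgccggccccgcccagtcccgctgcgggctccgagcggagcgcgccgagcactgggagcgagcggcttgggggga
Fxyd6: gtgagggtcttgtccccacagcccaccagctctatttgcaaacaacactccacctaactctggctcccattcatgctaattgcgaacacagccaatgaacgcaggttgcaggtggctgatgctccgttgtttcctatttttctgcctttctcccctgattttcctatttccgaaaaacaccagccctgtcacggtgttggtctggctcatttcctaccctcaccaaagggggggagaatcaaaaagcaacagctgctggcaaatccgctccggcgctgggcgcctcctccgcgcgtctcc

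The genes that rose furthest in even their least changed pair were led by Ranbp17, a nuclear transport receptor of the importin family, on chromosome 11 from 33211795 to 33513746. It was at 5.57, 11.8 and 9.91 normalised reads in WT and at 44.1, 50.6 and 69.4 in T58A, so the groups lay far apart. Its log2 change was 2.50 ± 0.31 (SE; limma adjusted p = 0.00404). Fitted changes here are of log2 of the value plus 1, which understates the change of low genes.

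Tenm4, a transmembrane teneurin, was at 175, 438 and 362 in WT and at 530, 776 and 860 in T58A (log2 change 1.22 ± 0.13 SE, limma adjusted p = 0.00330). Ssc5d, a protein with scavenger receptor domains, was at 149, 345 and 265 in WT and at 445, 687 and 575 in T58A (1.23 ± 0.12 SE, limma adjusted p = 0.00265). The T58A libraries lay above all WT libraries for both genes. Mpp3, a membrane scaffold protein, the kinase Wnk2, the coiled-coil protein gene Ccdc85c and the Rab regulator Tbc1d16 changed by 1.37, 1.27, 0.95 and 0.99. Zfp827, a zinc finger protein, changed by 0.92, with 0.87, 0.91 and 0.97 in the pairs. Genes on the opposite strand overlap Ranbp17, Ssc5d, Tenm4, Mgll and Tbc1d16, and likewise Amigo2, H2-Eb1, H2-DMa and B2m among the falls below, so the values of these genes may include reads of their partners.

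Genes of 2 lipid enzymes also rose. Fasn, the fatty acid synthase, on chromosome 11 from 120805846 to 120824547, was at 3400, 4853 and 4824 in WT and at 7503, 8205 and 9904 in T58A. Every T58A library was above every WT library, and the log2 change was 0.98 ± 0.08 (SE; limma adjusted p = 0.00148, and 0.0188 with sex as a further term). Mgll, the lipase that splits monoacylglycerols, was at 141, 142 and 240 in WT and at 249, 400 and 420 in T58A (1.03 ± 0.15 SE, limma adjusted p = 0.00672).

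Measured in reads, the largest rises were in Hsp90ab1, Ncl, Fasn, Atp5b, Ldha and Tfrc. Hsp90ab1, the cytosolic HSP90 chaperone, gained 7853 normalised reads, from 37603 ± 3677 to 45455 ± 3777 (SD, n = 3), a log2 change of 0.27 ± 0.07 (SE). Ncl, which encodes nucleolin, a nucleolar protein of ribosome assembly, gained 6644 from 24690 ± 5673. Atp5b, a subunit of the mitochondrial ATP synthase, gained 3685, Ldha, the lactate dehydrogenase of glycolysis, gained 3463, and Tfrc, the receptor for iron-loaded transferrin, gained 3378. Read counts also grow with transcript length, so this order is one of reads and not of molecules. Without pair 2 the limma adjusted p was 0.200 for Hsp90ab1, 0.111 for Ncl, 0.0850 for Atp5b and 0.104 for Tfrc. Tfrc changed by 0.73, 0.41 and 0.09 in pairs 1 to 3, so the sex-matched pair was nearly flat, and its fitted change of 0.41 was 0.25 without pair 1 and 0.09 with sex as a further term. DESeq2 (adjusted p = 0.153) and total-count scaling (limma adjusted p = 0.0535) did not call Tfrc. Ldha, whose promoter is shown above, kept its call (0.0173). Without pair 3 the limma adjusted p was 0.0838 for Hsp90ab1 and 0.0568 for Atp5b. For Ccdc85c it was 0.0537 without pair 2.

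**Figure D3:**
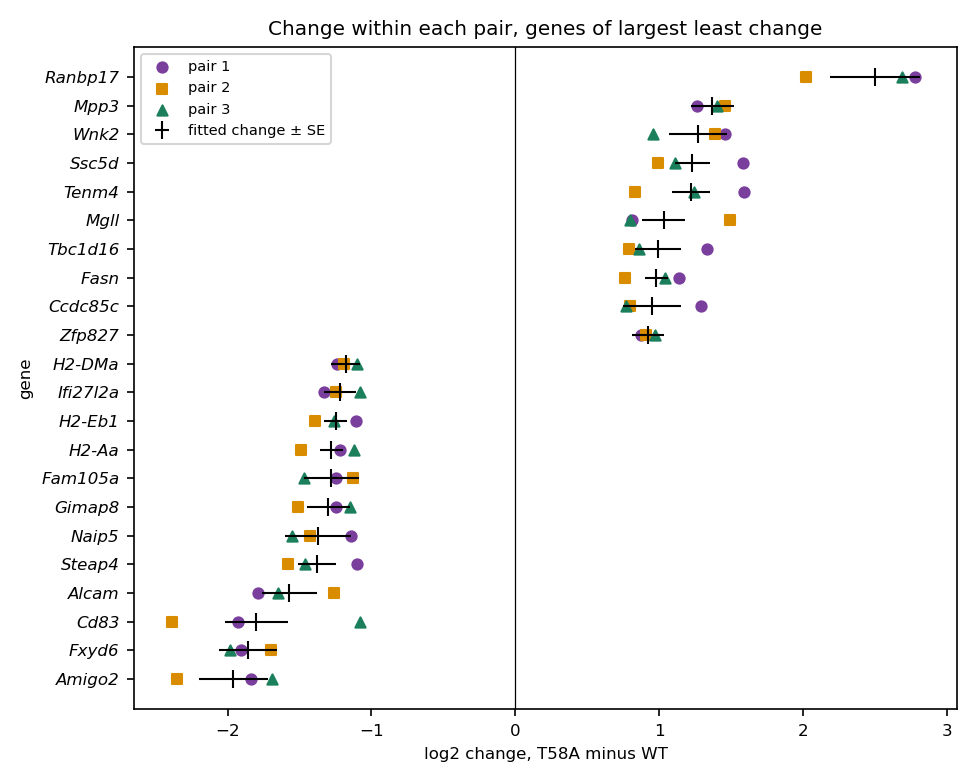
Log2 change in T58A within each of the 3 pairs (purple circles, orange squares and green triangles) for 10 of the 12 higher genes and for the 12 lower genes with the largest change in their least changed pair, beside the fitted change ± SE (black). All 3 points of each gene lie on the same side of 0, from 2.78 in pair 1 for Ranbp17 to -2.39 in pair 2 for Cd83.

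Among the genes that fell furthest in even their least changed pair, several encode surface and adhesion proteins. Fxyd6, a regulator of the sodium pump, on chromosome 9 from 45370185 to 45396159, was at 79.8, 66.1 and 175 in WT and at 20.4, 19.6 and 43.8 in T58A. The groups did not overlap, and the within-pair changes were -1.91, -1.70 and -1.98. Alcam, an adhesion molecule on chromosome 16 from 52248996 to 52454074, was at 162, 108 and 85.9 in WT and at 46.3, 44.4 and 26.6 in T58A (log2 change -1.57 ± 0.19 SE, limma adjusted p = 0.00404). Amigo2, another adhesion protein, was at 164, 98.7 and 33.0 in WT and at 45.2, 18.6 and 9.51 in T58A (-1.96 ± 0.24 SE). Here the groups overlapped and the difference appears within pairs.

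Genes of class II antigen presentation fell with little difference between pairs. H2-Aa, a class II chain on chromosome 17 from 34282744 to 34287823, was at 4337, 2527 and 1108 in WT and at 1866, 901 and 508 in T58A. Its level was highest in pair 1 and lowest in pair 3 in both genotypes, so the groups overlapped, while the change within pairs was -1.22, -1.49 and -1.12 (fitted -1.28 ± 0.08 SE, limma adjusted p = 5.36e-04). H2-Eb1, the partner beta chain of another class II molecule, changed by -1.25 ± 0.08. H2-DMa, which helps load peptides, changed by -1.18 ± 0.10. Cd74, the invariant chain that guides class II molecules, lost the most reads of the named genes, from 22038, 9732 and 5563 in WT to 9212, 4946 and 2738 in T58A (-1.09 ± 0.07 SE, limma adjusted p = 5.36e-04). With sex as a further term H2-Aa, H2-Eb1 and Cd74 kept their calls at limma adjusted p-values of 0.0131, 0.00976 and 0.0135. In these bulk cultures, fewer cells that express a gene and less RNA per cell cannot be told apart.

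Steap4, a metalloreductase, was at 362, 270 and 363 in WT and at 169, 89.9 and 131 in T58A (log2 change -1.38 ± 0.13 SE, limma adjusted p = 0.00223, and 0.0443 with sex as a further term). All WT libraries were above all T58A libraries. Cd83, a marker of activated B cells, changed by -1.80 ± 0.22, and its change was smaller in the sex-matched pair 3 (-1.08) than in pairs 1 and 2 (-1.93 and -2.39). That difference between pairs has no test. Ifi27l2a, an interferon-induced gene, changed by -1.22, the immune GTPase gene Gimap8 by -1.30, Naip5, a sensor of bacterial flagellin with near-identical neighbours, by -1.37, and Fam105a by -1.28.

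In reads, the largest falls after Cd74 were in class I presentation and B cell receptor signalling. H2-K1, a class I heavy chain, was at 12525, 10854 and 11501 in WT and at 8245, 6944 and 7272 in T58A (log2 change -0.64 ± 0.06 SE, limma adjusted p = 0.00223). B2m, the light chain of all class I molecules, was at 13632, 12551 and 12688 in WT and at 9551, 9076 and 9542 in T58A (-0.46 ± 0.06 SE, limma adjusted p = 0.00531). Both groups were tight and separate for both genes. Cd79b, a signalling chain of the B cell receptor, changed by -0.53, Spib, a transcription factor of B cells, by -0.41, and Psap, the precursor of lysosomal saposins, by -0.36. Spib lost its call without pair 2 (limma adjusted p = 0.0639).

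Only 10 of the called genes changed by more than 4-fold in the fit, and most of these were low. Wscd1 was the other rise beside Ranbp17, at 2.72 to 7.71 normalised reads in WT and 18.3 to 28.9 in T58A, and lost its call without pair 2 (limma adjusted p = 0.0995). Beside Xist, the falls were in Cd86, Traf1, Fcrl5, Wfdc17, Igj, Pdcd1 and Ccl22. Ccl22, a chemokine, was at 37.1, 19 and 27.5 in WT and at 8.61, 6.20 and 3.81 in T58A, and alone among these 8 falls it kept its call without pair 2 (limma adjusted p = 0.0213). Pdcd1, the inhibitory receptor PD-1, was at 13.0, 16.3 and 9.91 in WT and at 2.15, 3.10 and 1.90 in T58A, where 3 reads correspond to 2.85 to 3.23 normalised reads. A further 24 genes had reads in each T58A library and 0 in each WT library, and 42 had the reverse. None of these had more than 14 reads in a library, so no fold is given.

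Of 25 gene lists, the 6 with the highest share of rising members concern nuclear transport, protein folding, methylation, mitochondrial import and translation. The median log2 change of all tested genes was -0.01. The share of higher genes grew with level, from 1.21% in the lowest bin to 15.4% in the highest. The lists and symbol families were not compared with genes of their own level, so the 6.41% of all genes is a low background for abundant members. With sex as a further term, 0 members of each of these 6 lists were called. Nuclear pore proteins and transport receptors, which carry proteins and RNA in and out of the nucleus, rose in 25 of 56 tested members (44.6%, against 6.41% of all genes) and fell in 0, with a median of 0.25. Ranbp17 is one of them. Nup214, a pore protein, was at 1615, 1659 and 1586 in WT and at 2223, 2254 and 2202 in T58A, with no overlap (log2 change 0.46 ± 0.06 SE, limma adjusted p = 0.00555). Xpo5, the exporter of microRNA precursors, went from 1163 ± 169 to 1637 ± 129 (SD, n = 3). The list's count was 21 without pair 2 and 17 without pair 3.

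Cytosolic chaperones rose in 18 of 38 (47.4%) and fell in 1, with a median of 0.23. Bag2, a co-chaperone of HSP70, went from 218 ± 41.4 to 346 ± 24.4 and Fkbp4, a co-chaperone of HSP90, from 4215 ± 339 to 5560 ± 137 (SD, n = 3). Pfdn5, a prefoldin subunit, fell by 0.35 on the log2 scale. Without pair 2 only 1 chaperone gene was called higher, without pair 3 there were 7, and total-count scaling gave 12, while the list's median was 0.27, 0.25 and 0.15 in pairs 1 to 3.

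RNA and protein methyltransferases and their helpers rose in 14 of 34 (41.2%) with 0 falling and a median of 0.25. Carm1, which methylates arginines, was at 987, 974 and 1012 in WT and at 1369, 1353 and 1320 in T58A, again with no overlap. Nsun2, which methylates transfer RNA, changed by 0.38 ± 0.06 (SE). The count was 5 without pair 2, and the list's median was 0.31, 0.27 and 0.11 in pairs 1 to 3. Mitochondrial import and chaperone genes rose in 9 of 32 (28.1%) with a median of 0.17 (0.22, 0.30 and 0.06 in the pairs), among them Hspd1, the mitochondrial chaperonin (0.51 ± 0.08 SE), and Lonp1, a mitochondrial protease (0.35 ± 0.07 SE). That count was 1 without pair 2 and 5 without pair 3.

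Aminoacyl tRNA synthetases, which load amino acids onto transfer RNA, rose in 9 of 36 (25%) with a median of 0.16. Eprs went from 3705 ± 573 to 4907 ± 338 and Iars from 2786 ± 420 to 3712 ± 263 (SD, n = 3). The count was 4 without pair 2, 3 without pair 3 and 6 with total-count scaling. Translation factors rose in 11 of 47 (23.4%) and fell in 2, with a median of 0.16 (0.15, 0.21 and 0.09 in the pairs). The initiation factor subunits Eif4g1 and Eif3b changed by 0.39 ± 0.06 and 0.35 ± 0.06 (SE). The members that fell, Pdcd4 (-0.54) and Eef2k (-0.28), encode known inhibitors of translation. The count of rises was 3 without pair 2 and 5 without pair 3.

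The 6 lists with the highest share of falling members concern immune recognition, migration and quiescence. With sex as a further term, 1 falling class I gene and 1 falling gene of the GIMAP and Schlafen list were called, and 0 in each of the other 4 lists. Class I presentation genes fell in 8 of 16 (50%, against 6.31% of all genes) with a median of -0.36, and the count was 8 without pair 2 and 9 without pair 3. H2-T23 was at 923, 750 and 596 in WT and at 469, 404 and 342 in T58A (log2 change -0.89 ± 0.08 SE). H2-Q4 was at 2285, 1861 and 2512 in WT and at 1384, 1165 and 1322 in T58A (-0.77 ± 0.07 SE). The chaperone Canx was the 1 member that rose (0.25). Class I heavy chain genes are near-identical to each other, so reads may be split unevenly between them.

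Chemokine receptor and homing genes fell in 11 of 30 (36.7%) and rose in 0, with a median of -0.39. S1pr1, the receptor that lets lymphocytes leave tissues toward blood, was at 984, 485 and 562 in WT and at 399, 255 and 289 in T58A (log2 change -1.06 ± 0.10 SE, limma adjusted p = 0.00234). Ccr7, a receptor for homing to lymph nodes, was at 626, 464 and 279 in WT and at 305, 249 and 166 in T58A (-0.89 ± 0.10 SE). The S1pr1 groups did not overlap, and the Ccr7 groups did. The count was 9 without pair 2.

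Cytokine receptor and JAK-STAT genes fell in 15 of 47 (31.9%) and rose in 0, with a median of -0.28. Il21r, the receptor for IL21, went from 460 ± 209 to 217 ± 60.0 and Tgfbr2, a receptor for TGF-beta, from 1822 ± 576 to 1248 ± 407 (SD, n = 3). Both fell within every pair. The count was 8 without pair 2. Innate pattern receptor and inflammasome genes fell in 10 of 36 (27.8%) with a median of -0.36, among them Ly86, the partner of the B cell surface protein CD180 (-1.14 ± 0.13 SE), and the inflammatory caspase Casp4 (-0.96 ± 0.12 SE). That count was 8 without pair 2. Several of these genes are also expressed by myeloid cells, whose markers were lower in T58A in pairs 1 and 3 as given above.

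GIMAP and Schlafen genes, families of immune GTPases and growth regulators, fell in 6 of 14 (42.9%) and rose in 1, with a median of -0.29. Slfn2, which is known to keep lymphocytes quiescent, was at 1834, 1276 and 1740 in WT and at 714, 529 and 875 in T58A (log2 change -1.21 ± 0.09 SE, limma adjusted p = 7.47e-04, and 0.0188 with sex as a further term). Its family member Slfn3 moved the other way, from 133 ± 36.6 to 233 ± 28.3 (SD, n = 3; 0.83 ± 0.14 SE). The groups did not overlap for either gene. The count of falls was 4 without pair 2.

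FOXO, KLF and other quiescence factors fell in 10 of 36 (27.8%) and rose in 0, with a median of -0.11. That median was -0.22, -0.28 and -0.05 in pairs 1 to 3, and 12 of the 36 had a positive change. Pik3ip1, an inhibitor of PI3 kinase, was at 638, 390 and 349 in WT and at 306, 220 and 220 in T58A (log2 change -0.85 ± 0.11 SE). Ypel3, a growth-suppressing gene, was at 1564, 746 and 569 in WT and at 657, 405 and 375 in T58A (-0.91 ± 0.12 SE). Foxo1 and Klf2, which encode transcription factors of resting lymphocytes, were also among those that fell. The count was 8 without pair 2.

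**Figure D4:**
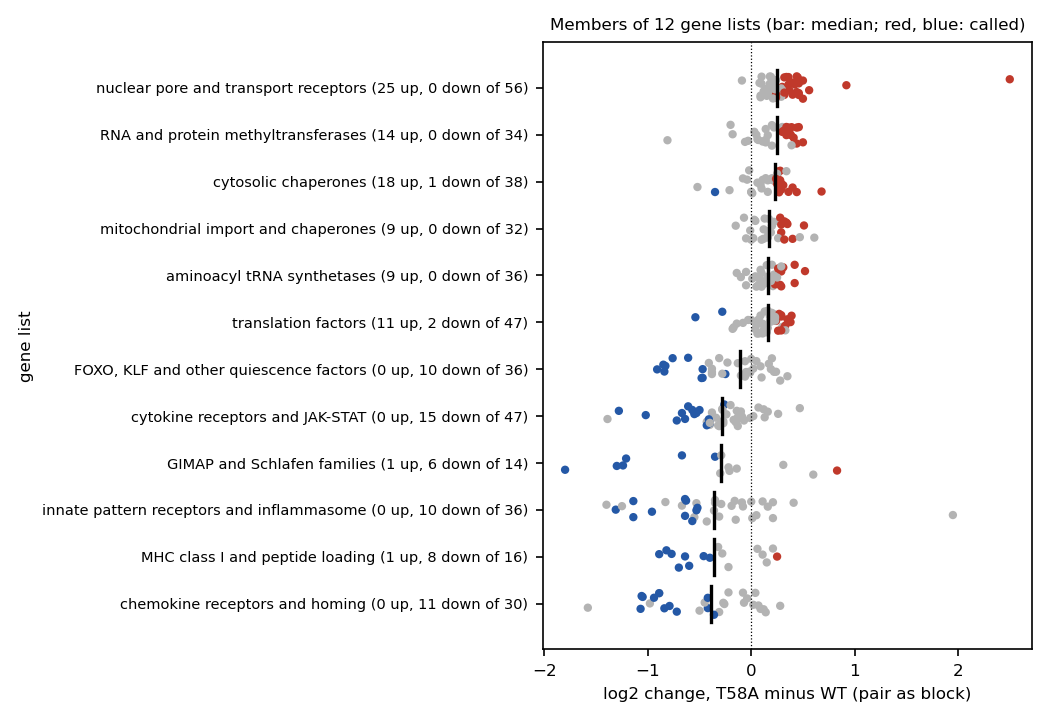
Log2 change in T58A of each tested member of the 12 gene lists with the highest share of members called in 1 direction (6 lists led by rises and 6 by falls), with called members in red (higher) or blue (lower) and the median as a black bar. The medians run from 0.25 for nuclear pore and transport receptors to -0.39 for chemokine receptors and homing.

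The remaining lists had smaller shares in either direction, set here beside 6.41% higher and 6.31% lower among all genes. As above, those 2 shares do not take the level of the members into account, and the top bin of level held 15.4% higher genes. Lysosome and autophagy genes fell in 9 of 55 (16.4%) and rose in 2, TNF family genes fell in 5 of 28 (17.9%) and rose in 1, and clock genes fell in 3 of 17 (17.6%). Splicing genes rose in 7 of 56 (12.5%) and fell in 4 (7.14%), where the falling ones included the kinases Clk1 and Clk4. Amino acid and nucleoside carriers rose in 6 of 32 (18.8%) and fell in 4 (12.5%), and imprinted genes rose in 3 of 14 (21.4%). Mitochondrial ribosomal proteins rose in 3 of 74 (4.05%), below the share of all genes, although 57 of 74 had a positive change. Of 44 proteasome genes 4.55% rose and 2.27% fell, of 44 PI3K and mTOR genes 2.27% and 4.55%, and of 28 iron and heme genes 7.14% and 3.57%. Of 38 glycosylation enzymes 5.26% rose and 10.5% fell, and of 61 Polycomb and Trithorax genes 8.20% and 4.92%.

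Genes were also grouped by symbol, without regard to function, and the families given here were picked after their values were seen. Of 9 tested Gbp genes, the interferon-induced guanylate binding proteins, 6 fell (66.7%, against 6.31% of all genes) and 0 rose, among them Gbp2 (-0.76 ± 0.10 SE) and Gbp8 (-1.22 ± 0.22 SE). Of the 10 tested genes whose symbol is Mcm with a number, mostly subunits and partners of the replicative helicase, 5 rose (50%, against 6.41% of all genes) and 0 fell, among them Mcm2 (0.33 ± 0.06 SE), which went from 3758, 4251 and 4551 in WT to 4985, 5172 and 5655 in T58A. Of 52 genes with a Cd number as symbol, 18 fell (34.6%) and 0 rose. Falls were also seen in 4 of 8 Ifi genes (50%) and 4 of 11 Irf genes (36.4%), and rises in 4 of 9 Utp genes (44.4%), 3 of 8 Nol genes (37.5%) and 3 of 8 Rrp genes (37.5%). Without pair 2, 3 of the 6 Gbp genes, 1 of the 5 Mcm genes and 14 of the 18 Cd genes kept their calls.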

How the data were processed

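RNA of 6 libraries of IL7-grown marrow B cells was analysed. The LPS cultures were not analysed here. Per the submitters' processing notes, libraries were processed with bcl2fastq 1.8.4, TopHat2 2.1.0, HTSeq 0.6.1 and DESeq2 on mm10. The annotation is not given in the sources used here. The authors deposited a normalised signal for each gene. Its values are whole multiples of 1 step per library, so reads could be recovered, and 100% of values came out whole to within 0.001. EdgeR on those reads called 670 higher and 754 lower genes. The fold changes and p-values in the same table were not used.

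The low-count filter was filterByExpr (edgeR 4.0.16; at least 10 reads per gene, 15 in total, applied to recovered reads), which left 11604 of 23973. Log2 of the value plus 1 was fitted with limma 3.58.1 (R 4.3.3, eBayes with trend) with pair and genotype, and genes were called where the Benjamini-Hochberg adjusted p was under 0.05. The numbers pair the libraries by the word pair in the titles. Correlations of the libraries' deviations from their group were 0.41, 0.15 and 0.40 between libraries of the same number and -0.36 to -0.05 otherwise. The members, lists and tests were chosen with earlier results of these data known.

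Named genes are Myc, then called autosomal genes with 1 sign in all pairs and a mean of at least 50 in the higher group. The first 12 in each direction were taken by the smallest of the 3 within-pair changes, and the first 6 by the difference of means in reads. Some of these genes, and 1 list, are not reported here. Predicted genes, pseudogenes and receptor segments were left out. In each list up to 2 called members per direction with the smallest p were named. Genes over 4-fold, Foxo1, Klf2, Clk1, Clk4, the genes of the symbol families and the marker genes were named after their values were seen. Symbols were matched to RefSeq GRCm38.p6 (99.3%), and promoter windows come from it. Gene positions come from GENCODE M21 (GRCm38, the mm10 assembly). Intervals of fitted changes include the spread between samples, while the value of 3 reads and the intervals of shares cover counting error only. Alternatives were other scalings, filters, pseudocounts of 0.5 and 5, edgeR on the recovered reads, limma-voom, DESeq2 1.42.0, no block, each pair left out, sex as a term and autosomal genes alone. Figures were drawn with matplotlib 3.10.9.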

Additional observations from a re-analysis of the deposited data

How the results depend on the processing

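With the pair as a block, the counts of higher and lower genes stayed within 1.5 times of 744 and 732 under TMM and total-count scaling, both other filters, both pseudocounts, edgeR, limma-voom and autosomal genes alone. With no replicate block limma called 0 higher and 0 lower genes. With DESeq2 and the block 486 genes were higher and 544 lower. With sex added to the block 13 were higher and 29 lower, of which 7 and 18 were among the 744 and 732. That fit has 1 residual degree of freedom. Leaving out 1 pair gave 345 to 690 higher and 429 to 735 lower genes, with the lowest counts without pair 2. All 36 genes chosen by rule kept their direction under every alternative that tested them. With sex as a term 6 of the 36 kept their call. Without pair 2, 30 kept it, as did 36 without pair 1 and 34 without pair 3. The minimum count of 50 left 33 of them in the test. For genes picked in 2 pairs, a threshold of 2-fold in place of 1.5-fold gave 100% (10 of 10 genes, Wilson 95% interval 72.2 to 100) and 90.1% of the same sign in pair 1 (higher and lower), 73.5% for lower genes in pair 2 and 73.8% for higher genes in pair 3. A threshold below 1.5-fold gave 84.0% for lower genes in pair 3. Fewer samples entered the fits that left out a pair. For the other shifts the cause was not tested. The median 95% interval of a gene's log2 change reached 0.24 to either side.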

Other observations

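The pairs disagreed outright for some genes. Of the 11604 tested genes, 58 changed at least 2-fold in opposite directions in different pairs. Most genes did not change 2-fold in 2 pairs, so the whole is a wide base for this count. For comparison, 42 genes rose and 92 fell at least 2-fold in both pairs 1 and 2. These counts were 30 and 98 for pairs 1 and 3, and 10 and 71 for pairs 2 and 3. Among the 58 are genes known from macrophages that were higher in T58A in pair 2 and lower in pairs 1 and 3. Gpnmb, a glycoprotein of macrophages, was at 396, 107 and 413 normalised reads in WT 1 to WT 3 and at 161, 661 and 184 in the T58A partners. Mmp12, the macrophage elastase, was at 114, 29.9 and 149 in WT and at 48.4, 162 and 73.2 in T58A. Lyz2, the myeloid lysozyme, was at 256, 170 and 681 in WT and at 208, 369 and 191 in T58A. None of the 3 passed limma's test across pairs, while without pair 2 the limma adjusted p was 0.00306 for Gpnmb, 0.0184 for Mmp12 and 0.0480 for Lyz2. These genes were picked by looking at their values, among them the opposite change in pair 2. The p-values without pair 2 follow from that choice and are no test of T58A.

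A second set of the 58 split the libraries in another way. Apobec3, a cytidine deaminase that restricts retroviruses, was at 643 in WT 1 and 836 in T58A 2 and at 2922 to 3279 in the other libraries. D730005E14Rik, which overlaps Apobec3 on the same strand, was at 63.1 and 81.7 in those libraries and at 314 to 398 in the others. The ribosomal protein gene Rpl23a, on another chromosome, was at 35.3 and 38.2 there and at 156 to 188 elsewhere. WT 1 and T58A 2 belong to different pairs, genotypes and sexes, so none of these separates them from the other libraries. The limma adjusted p for T58A was 0.920 for Apobec3, 0.986 for D730005E14Rik and 0.992 for Rpl23a.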
